A study of Mus musculus with 8 samples.

Results

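The genes of oxidative phosphorylation were followed through the maturation of osteoblasts (OBs) in parietal bone. They were taken by their symbols, as the genes that code for subunits of respiratory complexes I to IV and of the ATP synthase, complex V. This gave 94 of the 31053 genes counted, of which 81 are nuclear and 13 are carried by mitochondrial DNA (the mt- genes). The nuclear genes comprised 36 of complex I, 4 of complex II, 8 of complex III, 16 of complex IV and 17 of complex V, and the mt- genes 7 of complex I, 1 of complex III, 3 of complex IV and 2 of complex V. Cox4i1, Cox4i2, Cyc1 and Ndufab1 also code for subunits but fall outside the symbol rule, and Atp5o was counted under a pair of overlapping gene models.

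Single cells of parietal bone from mouse pups at P4-5 had been profiled in 8 libraries, each holding cells from up to 5 animals of 1 genotype. WT (S1, S2, S5 and S6) and Het G610C (S3, S4, S7 and S8) pups both carry the strain name B6.129(FVB)-Col1a2tm1Mcbr/J in the labels, while the study's methods give that name to the Het mice, kept on a C57BL/6J background. The mutant allele of Col1a2 replaces a glycine in the procollagen chain that this gene codes for. By the labels S1 to S4 were made with kit version 3 and S5 to S8 with kit version 3.1, so that each kit held 2 libraries of each genotype, whereas the study's methods name version 3.1 chips alone. The Cell Ranger version changed with the kit (5.0.0 and then 6.0.1), so the effects of the 2 cannot be told apart. Animals and cell preparations may have changed with the kit as well. The study names 2 independent experiments on OBs of this age without saying which libraries belong to each. The counts were of unique molecular identifiers (UMIs), each standing for 1 captured RNA molecule, and the library was the replicate, so p-values measure the spread between pooled libraries rather than between single animals.

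Complexes I to IV pass electrons from NADH and succinate to oxygen, complexes I, III and IV pump protons out of the mitochondrial matrix as they do so, and complex V uses the proton gradient to make ATP. Complex II is built from nuclear genes alone, whereas the other complexes combine nuclear and mt- subunits, so their assembly needs transcripts from both genomes. Some nuclear subunits of complex IV exist as tissue isoforms, and those of heart and skeletal muscle replace the common isoforms as these muscles mature. Osteoblasts draw ATP from glycolysis as well as from respiration, and secretion of collagen is one of their large demands for energy.

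The libraries held 68625 barcodes (4975 to 20175 per library) and 30480239 to 85162035 UMIs each, and 46420 cells passed quality control (at least 500 genes and under 10% mt- UMIs). OBs were the 2671 cells with at least 10 Col1a1 UMIs and at least 2 UMIs in at least 2 of Runx2, Sp7 and Ibsp. By the share of Col1a1 in the cell's UMIs they comprised 379 early OBs (eOBs, under 0.75%), 1217 differentiating OBs (dOBs, 0.75 to 3.5%) and 1075 mature OBs (mOBs, over 3.5%). All 10 osteoblast markers, which include the genes of the selection, were detected in the mOBs of every library. They made up 10.3 to 16.2% of UMIs in WT and 7.60 to 12.0% in Het mOBs. S1 and S2 stood apart, since 56.5% and 46.5% of their cells carried at least 3 haematopoietic markers, against 3.21 to 9.75% elsewhere. Cells outside the OBs with at least 3 of these markers were called haematopoietic-like. They were limited to fewer than 3 markers at 2 or more UMIs of each other class. These classes were endothelial, smooth muscle or pericyte, fibroblast, cartilage and skeletal muscle. Cells outside the OBs with Col2a1 over 1% of UMIs and at least 3 other cartilage markers were called cartilage-like. They were limited to fewer than 3 haematopoietic markers at 2 or more UMIs. The cartilage-like cells of S5 were shallow, with a median of 1058 UMIs. In haematopoietic-like and in cartilage-like cells 9 to 10 of the osteoblast markers were detected as well, but at lower shares. These reached at most 0.289% and 0.365% of UMIs in a library. OBs that carried at least 3 markers of 1 other class, each at 2 or more UMIs, stayed in the main setting. Without them S1 kept 218 of 243 OBs, S2 125 of 133, S3 136 of 168 and S4 284 of 317. With kit version 3.1, S5 kept 344 of 821, S6 248 of 509, S7 102 of 321 and S8 65 of 159. Between 2 and 61 barcodes were shared by each of the 28 pairs of libraries. The 10% limit on mt- UMIs removed 3.75 to 20.8% of the mOBs of a library, so it caps the mitochondrial share described here.

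Summed UMIs of the nuclear genes differed more between kits than between genotypes. They made up 1.68% of all UMIs in the mOBs of WT S1 and 1.62% in WT S2, against 1.87% in Het S3 and 1.72% in Het S4. With kit version 3.1 they made up 1.13% in WT S5 and 1.04% in WT S6, against 1.11% in Het S7 and 1.09% in Het S8. All 4 libraries of kit version 3 lay above all 4 of kit version 3.1, with a ratio of the kit means of 1.57, whereas the genotypes overlapped. The ratio of the kits was 1.55 in dOBs, 1.74 in eOBs and 1.46 in cartilage-like cells, but 0.892 in haematopoietic-like cells, which lay lower with kit version 3.

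The nuclear share in mOBs was 1.37% ± 0.327 (SD, n = 4) in WT and 1.45% ± 0.404 (SD, n = 4) in Het libraries. Het exceeded WT by 0.146 percentage points with kit version 3 and by 0.0170 with kit version 3.1, where the SD within genotype and kit was 0.0637. Averaged over the kits the difference was 0.0815 points, and it became -0.00138 when collagen and mt- UMIs were left out of the total. In dOBs the averaged difference was 0.131 points, against an SD within genotype and kit of 0.109, and in eOBs it was 0.00984 points, against 0.0890.

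The mitochondrial share split by kit in eOBs and dOBs but not in mOBs. In eOBs it was 5.04 to 5.33% with kit version 3 and 3.02 to 4.60% with kit version 3.1, and in dOBs 4.78 to 5.03% and 3.59 to 4.51%, without overlap in either stage. In mOBs the 13 mt- genes made up 3.79% of UMIs in WT S1, 3.73% in S2, 4.50% in S5 and 3.80% in S6. The Het libraries gave 4.35% in S3, 4.04% in S4, 3.80% in S7 and 3.81% in S8, within the range of WT. Het was higher than WT by 0.435 percentage points with kit version 3 and lower by 0.346 with kit version 3.1. The latter rests on WT S5, since S6 lay beside S7 and S8. The difference averaged over the kits was 0.0447 points, and 0.22 points without S5.

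**Figure D1:**
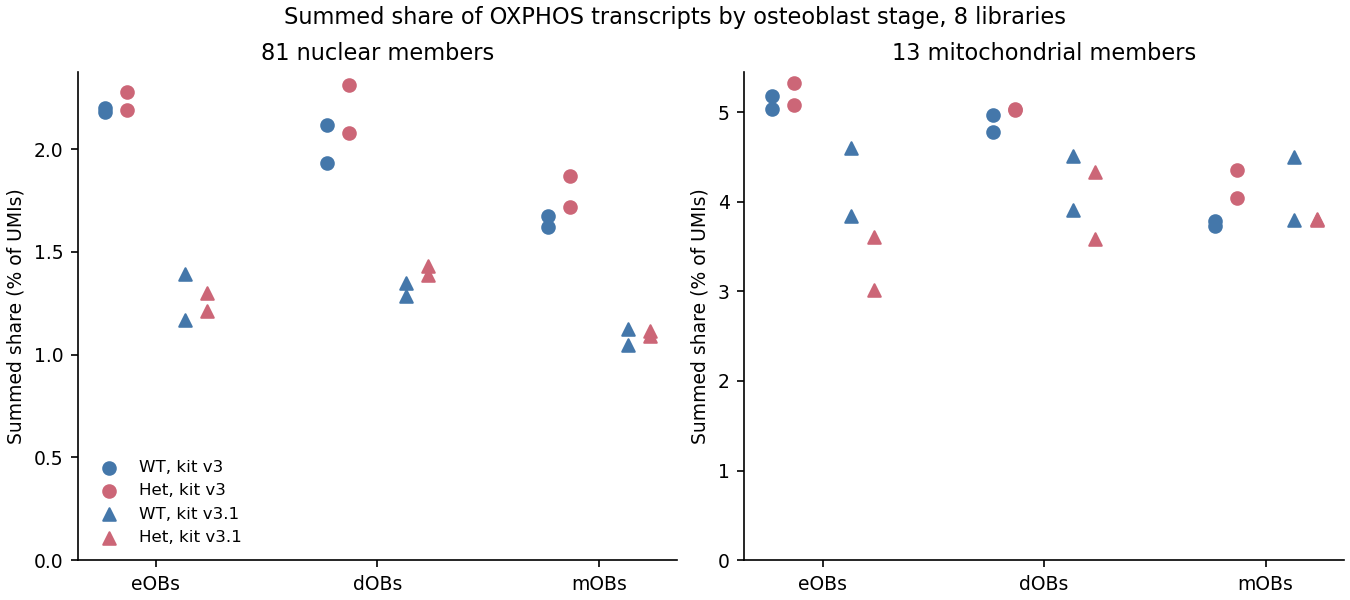
Share of all UMIs (%, linear axes) taken by the nuclear genes and by the mt- genes in eOBs, dOBs and mOBs, with 1 point per library, coloured by genotype and shaped by kit version. In the nuclear panel the kit version 3 libraries of mOBs (1.62 to 1.87%) lie above those of kit version 3.1 (1.04 to 1.13%), while WT and Het overlap in both panels when the kits are pooled.

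In mOBs Cox6a2 was found in some Het libraries and in no WT library, but the test over libraries did not pass its threshold (exact permutation p = 0.143). It codes for the heart and skeletal muscle isoform of complex IV subunit VIa. It lies on the minus strand at chr7:128205435-128206387 (GRCm38, GENCODE M21), and no other annotated gene overlaps it. Its UMIs in mOBs numbered 0 in WT S1, 0 in S2, 0 in S5 and 0 in S6. They numbered 116 in Het S3, 157 in S4, 0 in S7 and 9 in S8. Cox6a2 was therefore found in the mOBs of 3 of 4 Het libraries and of none of the 4 WT libraries, and Het S7 held none.

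As unscaled CPM (UMIs relative to a common total of all UMIs of the mOBs, without further scaling), the level of Cox6a2 was 77.3 in Het S3, 55.0 in S4 and 13.5 in S8. The Het libraries together had 40.6 unscaled CPM. This is at least 166-fold higher than the floor of 3 counts over the whole WT group, 0.244 unscaled CPM. That fold pools the kits and is not a fold within a kit. Kit version 3 gave 96.8% of the Het UMIs of Cox6a2, while S5 and S6 held most of the WT total. Their mOBs had 4445488 and 4805858 UMIs, against 1666919 in S1 and 1382174 in S2. Over the 8 library values, p was 0.143 by an exact permutation test (two-sided), where 0.0286 is the smallest that 4 against 4 libraries allow. The 4 WT libraries had no Cox6a2 UMI in mOBs under any of the 8 cell settings tried, and Het S7 had none either. Over them Het S3 ranged from 50.6 to 96.1 unscaled CPM, S4 from 41.7 to 60.3 and S8 from 10.1 to 37.7, where the value of S8 in the main setting rests on 9 UMIs and that without a limit on mt- UMIs on 28.

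In cells, 27 of 79 mOBs of Het S3 had a Cox6a2 UMI (34.2%, 95% exact binomial interval 23.9 to 45.7%). The share was 52 of 192 in S4 (27.1%, 20.9 to 34.0%) and 6 of 42 in S8 (14.3%, 5.43 to 28.5%). In Het S7 it was 0 of 105 mOBs, with an exact binomial interval up to 3.45%, and in the single WT libraries, with 0 of 73 to 299 mOBs each, the intervals reached 1.23 to 4.93%. By the approximate rule of 3 counts of the total, a count of 0 allows up to 2.86% in S7 and up to 1.0 to 4.11% in the WT libraries. These intervals and limits cover counting error only. After each cell was thinned to 2000 UMIs, a Cox6a2 UMI was kept in 9 of 79 mOBs of Het S3, 12 of 192 of S4, 0 of 104 of S7 and 1 of 41 of S8, and in 0 in each WT library, with 10 shallower mOBs left out.

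Cox6a2 was also found outside the mOBs, most of all in haematopoietic-like cells. These held 377 UMIs in 5406 WT cells and 14 in 1083 Het cells, or 9.88 against 2.19 unscaled CPM. Up to 27 UMIs lay in 1 cell. WT S2 (17.6 unscaled CPM, 232 UMIs) and S1 (7.72, 133 UMIs) had the highest levels. In cells, 1.29% of S1, 1.90% of S2, 1.58% of S5 and 2.02% of S6 had a UMI in WT, against 0.424% of S3, 0.581% of S4, 2.44% of S7 and 0 of the 76 cells of S8 in Het, with an exact binomial interval up to 4.74% (3.95% by the rule of 3 counts). WT was thus higher than Het within kit version 3, whereas within kit version 3.1 Het S7 was the highest and S8 had none. In cartilage-like cells, which should lack a muscle isoform, 23 of 7107 Het cells (0.324%) and 13 of 8146 WT cells (0.160%) had a UMI, at median depths of 1058 to 17918 UMIs per library. In mOBs the median depths were 12348 to 21116 UMIs. In dOBs 4 of 417 Het (0.959%) and 2 of 800 WT cells (0.25%) had a UMI, and in eOBs 1 of 130 and 1 of 249. That eOB held 2 UMIs in Het S8 and 11 UMIs in WT S5.

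Within the Het libraries, the mOBs with a Cox6a2 UMI had the larger share of Col1a1. The median Col1a1 share was 7.74% in cells with and 5.49% in cells without a Cox6a2 UMI in S3, 9.62% and 7.19% in S4, and 13.8% and 4.85% in S8. They were also deeper, with medians of 19676 against 15854 UMIs in S3, 16593 against 11259 in S4 and 31434 against 14716 in S8. In the WT libraries, without any Cox6a2 UMI, the median Col1a1 shares were 11.6% in S1, 10.2% in S2, 5.27% in S5 and 5.72% in S6.

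Markers of skeletal muscle were near 0 beside this result. Of the 8 muscle markers 1 to 3 were detected in the mOBs of a library, and Myh3, Myh8 and Ckm were at 0 in all 8 libraries. Their sum was 0.000301 to 0.000799% of UMIs in Het and 0.000145 to 0.000517% in WT mOBs. Markers of smooth muscle or pericytes were low but higher in Het than in WT mOBs without overlap, with 4 to 6 of 7 detected and 0.0221 to 0.0453% of UMIs in Het and 4 to 5 detected and 0.00636 to 0.0219% in WT. Their part in this pattern was not tested. Kit version 3 gave 96.8% of the Het Cox6a2 UMIs, and the part of the kit in this pattern was not tested.

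In edgeR, Cox6a2 was removed from the main comparison by the filter on low counts and so has no test there. Fits that kept it did so through the counts of the Het libraries alone, with the WT libraries at 0, and are not read as a test of genotype.

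**Figure D2:**
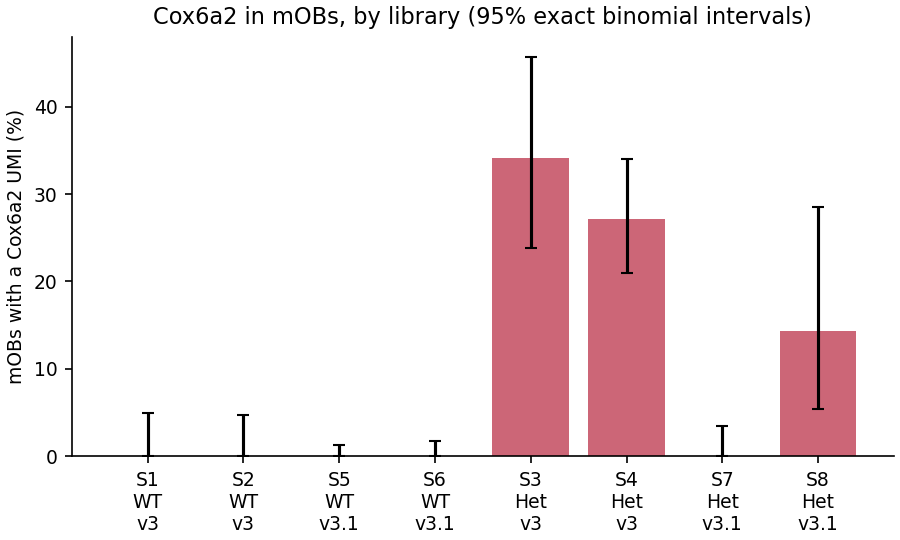
Percent of mOBs with at least 1 Cox6a2 UMI (linear axis from 0) in each library, labelled by genotype and kit version, with bars for the share and 95% exact binomial intervals. Het S3 (34.2%), S4 (27.1%) and S8 (14.3%) stand above 0, and Het S7 and the 4 WT libraries are at 0.

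The other isoform pairs were dominated by the common isoform in mOBs. UMIs were counted at the 3' end of transcripts, so unscaled CPM were not divided by length, and they are set side by side only as counts of molecules. Cox6a1, the common partner of Cox6a2, stood at 331 unscaled CPM in WT S1, 273 in S2, 143 in S5 and 129 in S6. In the Het libraries it stood at 386 in S3, 358 in S4, 151 in S7 and 123 in S8. In Het S3, 116 UMIs of Cox6a2 thus stood beside 580 of Cox6a1.

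Over all mOBs, Cox6b1 had 234 and its testis isoform Cox6b2 4.62 unscaled CPM. Cox7a2 had 270 and the muscle isoform Cox7a1 1.04 (20 UMIs), and Cox8a had 473 against a single UMI of the muscle isoform Cox8b. Cox8c, another isoform of subunit VIII, had 0 UMIs, and Cox7b2 had 11. Beside the members, Cox4i1 had 595 and Cox4i2, the isoform linked to low oxygen, 20.5 unscaled CPM in mOBs, whereas Cox4i2 had 1.86 in haematopoietic-like cells and 17.3 in cartilage-like cells. The muscle isoform Cox7a1 had 1 to 5 UMIs in the mOBs of every library of either genotype, and the UMI of Cox8b came from 1 library.

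No gene of the set was called between Het and WT in mOBs in the main comparison. The edgeR quasi-likelihood test with kit version in the model covered 9623 genes and called 51 of them (0.53%) at an adjusted p under 0.05. Of the nuclear genes 73 were tested and 0 called, with 3 at an unadjusted p under 0.05, whereas 11.2% of all genes lay under it. Their median log2 fold change was 0.015 beside 0.012 over all genes, and 42 were above 0, whereas 51.8% of all genes were. The median was below 0 without S3 (-0.013), S6 (-0.0053) or S8 (-0.017). The fold changes ran from -0.37 to 0.35 on the log2 scale. The 95% intervals of all 73 stayed within 1 log2 unit of 0, and those of 65 within 0.5. Of the 13 mt- genes 0 were called and 0 had an unadjusted p under 0.05, with a median of -0.022. The 8 nuclear genes not tested were Cox6a2, Cox6b2, Cox7a1, Cox7b2, Cox8b, Cox8c, Atp5s and 1 of the Atp5o models.

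In complex II, Sdhb, its iron-sulphur subunit, had 96.9 CPM (UMIs relative to a common library total, now scaled by the trimmed mean of the other genes) in WT S1, 76.4 in S2, 57.4 in S5 and 51.0 in S6. In Het it had 118 in S3, 105 in S4, 58.0 in S7 and 86.4 in S8. Both Het libraries lay above both WT libraries within each kit, with a log2 fold change of 0.35 (95% interval 0.05 to 0.65, edgeR adjusted p = 0.339). With cells thinned to 2000 UMIs it was -0.14. The fold changes of the other complex II genes were 0.25 for Sdhc and 0.07 for Sdhd, which anchor the complex in the membrane, and -0.08 for Sdha, the flavoprotein that oxidizes succinate.

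Among the complex I genes, Ndufv1, which binds NADH, had a log2 fold change of 0.32 (95% interval 0.05 to 0.58, edgeR adjusted p = 0.336). Its CPM were 46.3 (S1), 48.6 (S2), 31.5 (S5) and 27.0 (S6) in WT, against 61.9 (S3), 60.7 (S4), 37.1 (S7) and 31.1 (S8) in Het. Ndufv1 in S8 lay between the WT values of its kit, so the genotypes overlapped in kit version 3.1. Ndufs8, an iron-sulphur subunit on the same electron path, had 0.28.

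Ndufa1, a small accessory subunit of complex I, showed the largest decrease among the named genes, -0.37 (95% interval -0.69 to -0.05, edgeR adjusted p = 0.353). It had 387 CPM in WT S1, 330 in S2, 102 in S5 and 105 in S6. The Het libraries had 244 in S3, 202 in S4, 99.9 in S7 and 107 in S8. Within kit version 3 the genotypes were apart (log2 difference -0.68), whereas within kit version 3.1 they overlapped (-0.01). The accessory subunit Ndufa3 had -0.25.

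Of the remaining named genes, Uqcrq, a small subunit of complex III, had a log2 fold change of 0.30 and Cox7b, of complex IV, -0.17. Atp5e, the epsilon subunit of the ATP synthase, had -0.22, with both Het libraries under both WT libraries in each kit. Its CPM were 968 (S1), 839 (S2), 443 (S5) and 427 (S6) in WT, against 779 (S3), 705 (S4), 387 (S7) and 401 (S8) in Het. The mt- genes spanned from mt-Nd4l (-0.24) to mt-Atp8 (0.36), and Het S4 alone held 121 CPM of mt-Atp8, where the other 7 libraries held 45.9 to 71.1.

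Few genes of the set separated the genotypes in mOBs. In 3 of the 86 tested genes (Atp5b, Ndufv2 and Sdhb; 3.49%) Het lay above WT without overlap in both kits, beside 5.26% of all genes. In 1 gene (Atp5e) it lay below, beside 5.09% of all genes. Haematopoietic markers made up 0.000957 to 0.0671% of UMIs in WT and 0.00015 to 0.0164% in Het mOBs, with 8 to 10 and 1 to 9 of 11 detected, and erythroid markers reached 1.27% in WT S2. Their part in the differences was not tested.

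In dOBs the fold changes leaned upwards, with none called. Of 9857 genes 1 was called (0.0101%), and it was none of the 75 nuclear genes tested. Of these 62 had a fold change above 0, whereas 48.9% of all genes did, and the median was 0.094 beside -0.005 over all genes. Over the alternatives the number above 0 ran from 41 of 71 with thinned cells to 69 of 75 with other stage limits, and it was 51 of 76 without S3. The median was 0.022 with thinned cells, 0.057 without S1, 0.055 without S3 and 0.14 without S2. The markers of smooth muscle or pericytes were also higher in Het dOBs (0.0588 to 0.0747% of UMIs) than in WT dOBs (0.0383 to 0.0512%), and without the cells that carried markers of another class 62 of 73 nuclear genes were above 0. At an unadjusted p under 0.05 were 8, namely Ndufv1, Ndufa12, Ndufa10, Ndufs1, Sdhb, Uqcrc1, Atp5b and Atp5f1, beside 7.51% of all genes, and 1 mt- gene, mt-Atp8.

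Ndufv1 had 63.3, 82.6, 44.0 and 42.7 CPM in the dOBs of WT S1, S2, S5 and S6. Among the Het libraries it had 105 in S3, 91.8 in S4, 53.1 in S7 and 61.9 in S8. Here the genotypes did not overlap within either kit, and the log2 fold change was 0.43 (95% interval 0.16 to 0.70, edgeR adjusted p = 0.579). The catalytic beta subunit of the ATP synthase, Atp5b, had 0.36 and Sdhb 0.30. Het lay above WT in both kits in 9 of 88 genes (10.2%), beside 4.30% of all genes, and below it in 0, beside 4.10%.

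In eOBs, with only 22 to 95 cells per library, 0 of 8118 genes were called (0%), while 3.82% had an unadjusted p under 0.05. The 75 nuclear genes had a median of -0.047, and 30 were above 0, whereas 49.9% of all genes were. That direction turned without S5, with a median of 0.039 and 43 of 73 above 0, and without cells that carried markers of another class, with 0.16 and 57 of 73. Of the 13 mt- genes 12 were below 0, with a median of -0.19, which was -0.067 without S5, -0.10 without S7 and -0.44 with stricter selection. Ndufs1, the largest core subunit of complex I, stood out upwards with 0.65 (95% interval 0.19 to 1.12, edgeR adjusted p = 1.0). Its CPM in eOBs were 43.9 (S1), 32.7 (S2), 46.1 (S5) and 44.2 (S6) in WT, against 75.2 (S3), 82.6 (S4), 66.6 (S7) and 54.4 (S8) in Het, and every Het library lay above every WT library. Het lay above WT without overlap in both kits in this 1 of 88 genes (1.14%), beside 2.33% of all genes, and below it in 3 (Ndufb9, mt-Co2 and mt-Nd4; 3.41%), beside 2.83%.

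In haematopoietic-like cells, which make no type I collagen, 0 of 11083 genes were called (0%), while 12.9% lay under 0.05 before adjustment. The 77 nuclear genes had a median of -0.11, and 12 were above 0, whereas 48.6% of all genes were. The median was -0.053 without S7 (22 of 77 above 0), -0.18 without S8 (4 of 78) and -0.053 with thinned cells (28 of 73). The genotype by stage term, which asks whether the difference of Het and WT changed between dOBs and mOBs, was called for 0 of 10580 genes (0%), while 488 lay under 0.05 before adjustment. Its median over 76 nuclear genes was -0.091, and 1 of these genes had an unadjusted p under 0.05. The median was -0.0080 without S1, -0.032 without S7, -0.060 without S8 and -0.0099 with thinned cells.

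**Figure D3:**
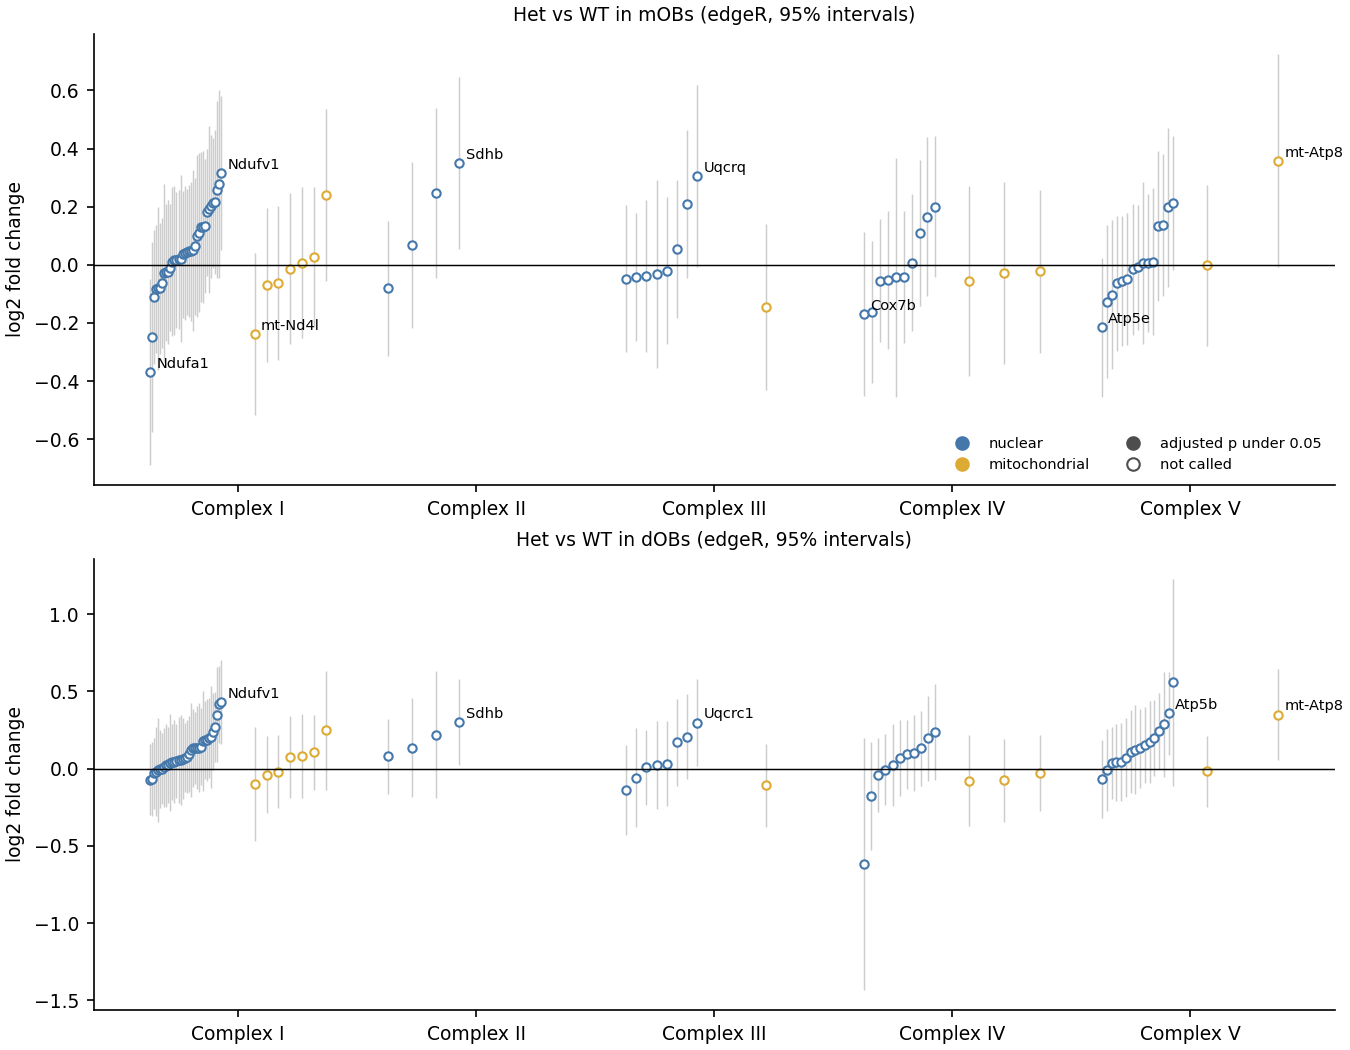
Log2 fold change of Het against WT (y axis, with a range of its own in each panel) in mOBs (top) and dOBs (bottom), with 1 point per gene, ordered within complexes I to V, coloured by genome and with 95% intervals from edgeR. All points are open, as none was called, and the medians of the nuclear genes were 0.015 in mOBs and 0.094 in dOBs.

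With maturation, genes of the set were called about as often as genes at large in the main comparison. Between mOBs and eOBs of the same libraries, with the library as a block, 3551 of 9991 genes were called (35.5%), 17.9% of all genes higher and 17.6% lower in mOBs. Of 75 nuclear genes 18 were higher and 5 lower in mOBs (30.7% called), with a median of 0.10 beside -0.027 over all genes, and 52 were above 0, whereas 47.2% of all genes were. With cells thinned to 2000 UMIs, where 800 of 3264 genes were called, 5 of 72 nuclear genes were higher and 3 lower, with a median of 0.0015 and 36 above 0. By complex, with Ndufa4 counted under complex I by its symbol although it is found in complex IV, 10 genes of complex I were higher and 1 lower, 1 of complex III was higher, 3 of complex IV were higher and 2 lower, and 4 of complex V were higher and 2 lower, while 0 of the 4 complex II genes were called. Without cells that carried markers of another class, Sdha (-0.39, edgeR adjusted p = 0.0239) and Sdhb (-0.32, edgeR adjusted p = 0.0266) were called lower in mOBs.

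The direction depended on the scale. These fold changes are relative to the trimmed mean of the other genes (TMM), while as a share of all UMIs, of which collagen takes more in mOBs, the nuclear genes were lower in mOBs than in eOBs in 8 of 8 libraries (ratio 0.736 to 0.898). With collagen and mt- UMIs out of the total the nuclear share was lower in 6 of 8 libraries (0.880 to 1.05). The mt- share was lower in 6 of 8 libraries and higher in S7 and S8. Without collagen in the total it was lower in 4 of 8 libraries. It was then higher in S5, S6, S7 and S8, all of kit version 3.1, and lower in every library of the other kit. The part of the kit in this split was not tested. Changes of single genes in this comparison are thus relative to other genes and not to the cell's whole RNA.

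Ndufa1 rose most on the TMM scale. It had 175, 179, 121, 120, 59.9, 67.4, 64.6 and 64.4 CPM in the eOBs of S1 to S8, and 471, 404, 300.2, 244, 122, 126, 120 and 128 in the mOBs of the same libraries. The mOBs were higher in 8 of 8 libraries, by 1.11 ± 0.11 on the log2 scale (SE, edgeR adjusted p = 7.23e-08). The rise was seen in libraries of both genotypes and kits.

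Atp5e followed with 0.65 ± 0.08 (SE, edgeR adjusted p = 3.27e-06). Its CPM in eOBs ran from 289 to 718 and in mOBs from 463 to 1179. Uqcrq rose by 0.58, but with thinned cells it had 0.29 and was not called (edgeR adjusted p = 0.256). Cox6a1 rose by 0.56 and the complex I subunit Ndufa13, also known for a role in cell death, by 0.51.

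The promoters of Ndufa1 and Atp5e, the genes with the largest rises, are shown as the 250 bases before the RefSeq start (GRCm38.p6), with any match to the cores of 3 motifs of factors known to control respiratory genes in capitals. These were the NRF1 core (GCGCATGC), the ETS core bound by GABPA (CCGGAAG) and the YY1 core (AAGATGGC), searched on both strands. That of Ndufa1 lies at chrX:37191239-37191488 (minus strand) and held no match, and that of Atp5e lies at chr2:174464102-174464351 (minus strand) and held 1 ETS core, whose first base is 102 bases before the start.
Ndufa1: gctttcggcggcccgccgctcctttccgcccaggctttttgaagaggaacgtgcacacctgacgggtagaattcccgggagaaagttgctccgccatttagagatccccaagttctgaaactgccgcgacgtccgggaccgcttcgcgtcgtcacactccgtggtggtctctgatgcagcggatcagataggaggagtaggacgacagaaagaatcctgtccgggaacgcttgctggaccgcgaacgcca
Atp5e: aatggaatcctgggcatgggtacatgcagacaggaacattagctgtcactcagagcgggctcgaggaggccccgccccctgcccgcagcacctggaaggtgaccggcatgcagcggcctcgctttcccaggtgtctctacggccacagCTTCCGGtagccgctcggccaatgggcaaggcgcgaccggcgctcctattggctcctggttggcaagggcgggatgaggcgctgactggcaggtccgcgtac
Of the genes of the set 67 had such a window of 250 bases, and 8 (11.9%) held the NRF1 core, 11 (16.4%) the ETS core and 0 the YY1 core, while of all 27025 genes 2.32%, 7.05% and 1.59% did. A match is a run of letters and not a bound site.

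A few nuclear genes fell. Ndufa4 fell by 0.35 on the log2 scale (edgeR adjusted p = 0.00236), a call that was lost with stricter selection of OBs (0.0544) and without the filter on low counts (0.0928). Its mOB level was below its eOB level in each of the 8 libraries, as in S4, with 405 against 593 CPM. Cox7b fell by 0.30 and Atp5o, which joins the stalk of the ATP synthase to its head, by 0.29, and both calls were lost when single libraries were left out. Without S4, S5, S6, S7 or S8 Cox7b had an edgeR adjusted p of 0.0766 to 0.130, and without S2, S5, S7 or S8 Atp5o had one of 0.0501 to 0.111. Cox6b2 (-1.66) and Atp5s (-0.91), both of low level, also fell.

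Of the 13 mt- genes 7 were called, all higher in mOBs on this scale. The mt-Nd genes code for the membrane core of complex I, mt-Cytb for cytochrome b of complex III, the mt-Co genes for the core of complex IV, and mt-Atp6 and mt-Atp8 for membrane subunits of complex V. mt-Co1, which holds the catalytic centre of complex IV, rose by 0.51 ± 0.07 (SE, edgeR adjusted p = 4.11e-06), with 4903, 5729, 6557, 5017, 5329, 4074, 2873 and 2796 CPM in the eOBs of S1 to S8 and 6532, 7797, 8760, 8158, 6243, 5562, 4753 and 4517 in the mOBs. It was higher in mOBs in all 8 libraries. mt-Atp6 rose by 0.34, mt-Co3 by 0.32, mt-Co2 by 0.30, mt-Nd4 and mt-Nd5 by 0.28 each and mt-Cytb by 0.26. With thinned cells 4 of these 7 were not called, while mt-Nd4l was. The 4 still rose, by 0.22 for mt-Atp6 (edgeR adjusted p = 0.0523) and 0.20 for mt-Cytb (0.0889). The rise was 0.23 for mt-Nd4 (0.0984) and 0.26 for mt-Nd5 (0.183). The genes not called in the main comparison had 0.49 (mt-Nd6), 0.29 (mt-Atp8), 0.22 (mt-Nd4l), 0.17 (mt-Nd3), 0.09 (mt-Nd1) and 0.01 (mt-Nd2). As given for the shares, the sum of the mt- genes over all UMIs was lower in mOBs in 6 of 8 libraries.

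**Figure D4:**
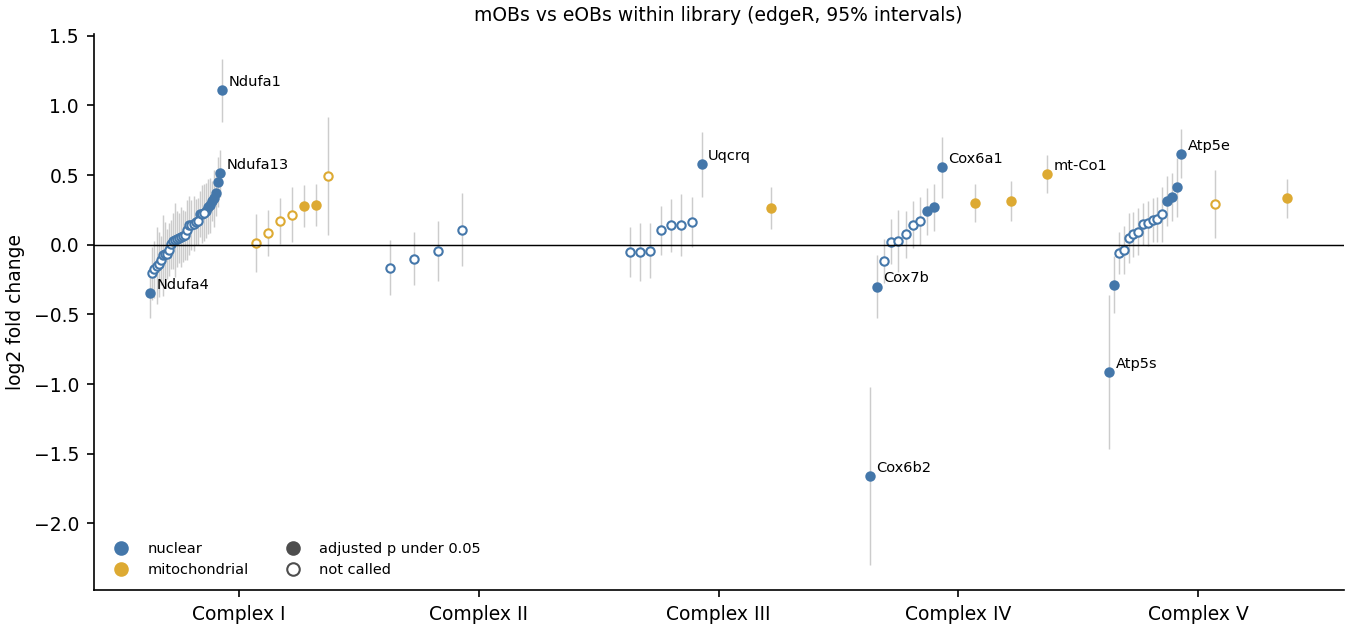
Log2 fold change of mOBs against eOBs (TMM scale, edgeR) for each nuclear and mt- gene by complex, with 95% intervals and filled points where the adjusted p was under 0.05. Ndufa1 (1.11), Atp5e (0.65), Uqcrq (0.58) and mt-Co1 (0.51) lie high on this scale, whereas as a share of all UMIs the nuclear sum was lower in mOBs in 8 of 8 libraries.

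Against haematopoietic-like cells of the same libraries, OBs had the lower levels. Of 11644 genes 7872 were called (67.6%), 32.2% of all genes higher and 35.5% lower in OBs. Of 77 nuclear genes 1 was higher (Atp5s) and 44 lower, with a median of -0.46 beside -0.053 over all genes, and 6 were above 0, whereas 47.5% of all genes were. The median was -0.25 with thinned cells (2 of 73 higher and 24 lower) and -0.30 with an mt- limit of 5% (0 of 76 higher and 30 lower). As a share of all UMIs the nuclear sum was also lower in OBs in 8 of 8 libraries (ratio 0.468 to 0.981). With collagen and mt- UMIs out of the total it was lower in 5 of 8. The libraries where it was higher were S1, S2 and S4, all of kit version 3. Lower were 16 of 36 genes of complex I, 4 of 4 of complex II, 6 of 8 of complex III, 9 of 12 tested of complex IV and 9 of 17 of complex V.

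Cox7a1, at a low level, had the largest decrease (-3.13). Of the genes with a mean of at least 20 CPM it was that of Cox5a, a nuclear subunit of complex IV, at -1.20 ± 0.22 on the log2 scale (SE, edgeR adjusted p = 5.73e-04). In OBs it had 261, 301, 375, 316, 161, 132, 138 and 166 CPM in S1 to S8, and in haematopoietic-like cells 452, 513, 468, 449, 502, 584, 427 and 585. The classes did not overlap, and the gap was wider in kit version 3.1. Sdhb had -1.02, Sdhd -0.92, Sdha -0.71 and Sdhc -0.58, and Uqcrc1, a core subunit of complex III, -0.94. Among those genes the smallest called decreases were those of Ndufs1 (-0.28), Ndufa3 (-0.38) and Ndufc2 (-0.39), of which Ndufs1 was not called without S2, S5 or S6 (edgeR adjusted p = 0.0632 to 0.127) nor Ndufc2 without S2, S5, S6, S7 or S8 (0.0531 to 0.0969). With thinned cells Ndufa3 and Ndufc2 were not called (edgeR adjusted p = 0.0613 and 0.252), nor with an mt- limit of 5% were Ndufs1 (0.182), Ndufc2 (0.12) and Sdhc (0.0668).

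On the TMM scale the mt- genes did not share this decrease. Of the 13, mt-Nd6 (0.74) and mt-Cytb (0.44) were higher in OBs and 0 were lower, with a median of 0.10. The count of 2 fell to 1 without S1 or without S4. As a share of all UMIs the mt- sum was lower in OBs in 6 of 8 libraries (ratio 0.799 to 1.47) and higher in S1 and S2. With collagen out of the total it was lower in 2 of 8 libraries and higher in 6. S1 and S2 held 2567 and 2163 haematopoietic-like cells against 76 to 689 in the other libraries, and their mt- shares in these cells were 3.08 and 3.21%, under the 3.63 to 5.10% of the other 6 libraries.

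Against cartilage-like cells the order was mostly reversed. Of 12148 genes 7108 were called (58.5%), 29.6% of all genes higher and 28.9% lower in OBs. Of 76 nuclear genes 34 were higher and 12 lower in OBs, with a median of 0.15 beside 0.003 over all genes, and 52 were above 0, whereas 50.3% of all genes were. The nuclear share of UMIs was higher in OBs in 8 of 8 libraries (1.01 to 1.20).

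Cox5a had the largest increase of the set, with 1.03 ± 0.11 (SE, edgeR adjusted p = 1.20e-05). In cartilage-like cells it had 131, 138, 126, 111, 90.3, 78.1, 75.7 and 80.5 CPM in S1 to S8, below the level of OBs in every library. Ndufv1 followed with 0.73 and Uqcrc1 with 0.63. Uqcrh, the hinge subunit of complex III (-0.35), Ndufa7 of complex I (-0.33) and Cox7c of complex IV (-0.32) were lower in OBs. In complex II, Sdhc (0.47), Sdhb (0.45) and Sdha (0.21) were higher and Sdhd (-0.29) lower, but Sdha was not called without S5 or S6 (edgeR adjusted p = 0.0631 to 0.0634) nor Sdhd without S1, S5, S6 or S8 (0.0512 to 0.0691). Of the mt- genes mt-Nd1 (0.30) and mt-Nd2 (0.31) were higher, and mt-Co1 (-0.39) and mt-Nd5 (-0.26) lower.

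**Figure D5:**
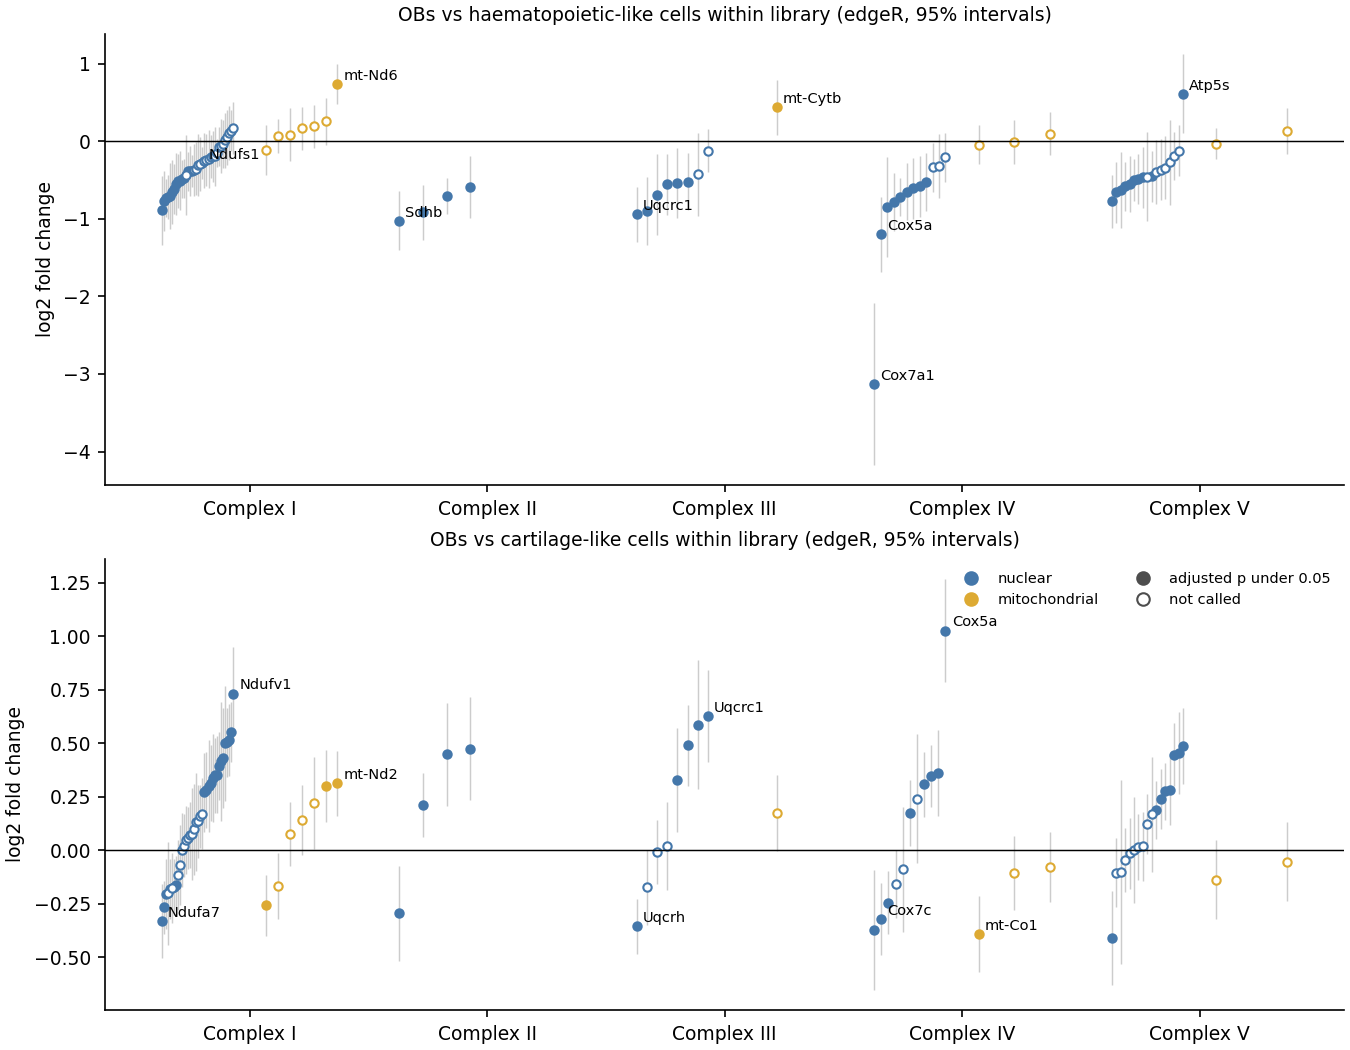
Log2 fold change of OBs against haematopoietic-like cells and against cartilage-like cells for each gene by complex (edgeR, 95% intervals, filled points for adjusted p under 0.05, with a y range of its own in each panel). Most nuclear genes lie below 0 against haematopoietic-like cells (median -0.46), although their sum was higher in OBs in 3 of 8 libraries with collagen and mt- UMIs out of the total, and above 0 against cartilage-like cells (median 0.15).

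Of the other genes of the pathway 0 were called in any of the 4 comparisons of Het with WT. The lists were 6 subunits outside the symbol rule, 46 assembly factors, 19 regulators of mitochondrial gene expression, 17 genes of the TCA cycle, 6 carriers and pores, and 78 genes of the mitochondrial ribosome. Their medians in mOBs were 0.15, 0.024, 0.082, 0.11, 0.098 and 0.11. Pdha1, a subunit of pyruvate dehydrogenase, had the smallest unadjusted p of these lists outside the ribosome, with 0.42 (95% interval 0.13 to 0.72, edgeR adjusted p = 0.227).

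With maturation, 12 genes of the mitochondrial ribosome were higher and 8 lower in mOBs than in eOBs of 77 tested, and of 42 assembly factors 5 were higher and 2 lower, where 17.9% of all genes were higher and 17.6% lower. Ndufa4l2, an isoform of Ndufa4 known from low oxygen, rose most on these lists outside the ribosome, with 1.97 ± 0.23 (SE, edgeR adjusted p = 9.84e-07). Uqcc2, an assembly factor of complex III, rose by 0.46, while Ppargc1b, a coactivator of respiratory genes, fell by 1.02 on the log2 scale. Of the TCA cycle genes Pdha1 rose, and Fh1 (-0.41) and Idh3b (-0.31) fell. Against haematopoietic-like cells 47 of 77 ribosome genes and 10 of 17 TCA cycle genes were lower in OBs and 0 higher, and against cartilage-like cells 32 and 13 were higher and 4 and 1 lower. Of 45 assembly factors 4 were higher and 14 lower in OBs against haematopoietic-like cells, and 13 higher and 14 lower against cartilage-like cells. Of the regulators 1 of 18 was higher and 8 lower in the first, and 5 of 19 higher and 5 lower in the second. Of 6 subunits outside the symbol rule 2 were higher and 4 lower, and then 4 and 0. For 6 carriers and pores it was 1 and 3, and then 2 and 0. Of all genes, 35.5% were lower and 32.2% higher in the first of these comparisons, and 29.6% higher and 28.9% lower in the second.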

How the data were processed

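Per the file headers and the submitters' processing notes, the authors made the deposited matrices with Cell Ranger 5.0.0 for 4 libraries and 6.0.1 for the other 4, on mm10, and the values are raw UMI counts per gene and cell barcode. The genes, lists and tests described here were chosen with earlier results of these data known. Cells, OBs and stages were selected as given above, doublets were not called and were kept, and counts were summed per library and class over at least 10 cells. Sums were tested in edgeR 4.0.16 (R 4.3.3) with filterByExpr, TMM scaling and the quasi-likelihood test, with kit version as covariate between genotypes and the library as a block between classes. P-values were adjusted by Benjamini-Hochberg over all genes tested, and a gene was called under 0.05. The study's methods compared single cells, which are not replicates, so library sums were used here instead. CPM were scaled by the TMM factors of each fit. The fit was tested on simulated counts with 200 changed genes.

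Named genes were those called between genotypes, the 5 largest increases and decreases in mOBs with a mean of at least 20 CPM, all mt- genes, the isoform pairs, the 4 Sdh genes, and the 3 largest and 3 smallest called nuclear fold changes between classes; other genes, as in dOBs, were named after their values were seen. Alternatives were looser and stricter OB selection, other mt- and stage limits, cells thinned to 2000 UMIs, cells with markers of another class left out, each library left out, DESeq2 1.42.0, RLE scaling, no filter on low counts, no kit version and a replicate block. Shares, intervals and permutation tests used Python 3.11.15 with scipy 1.17.1.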

Additional observations from a re-analysis of the deposited data

Results flagged for a closer look

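The mitochondrial share of UMIs in the mOBs of WT S5 was 4.50%, while the other 3 WT libraries lay between 3.73 and 3.80%. The gap to the nearest library was 0.913 of the range of the 4 libraries, above Dixon's 95% critical value for 4 values. It was the only 1 of 70 groups of 4 libraries checked to pass that value. Chance passes it in about 1 of 20 groups of like libraries. The WT group holds 2 libraries of each kit, and shares differed between kits, so that rate need not hold here.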

How the results depend on the processing

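Of the summary values recomputed under the alternatives that kept all libraries, 356 stayed within the set limits and 24 moved. Of the values of single genes, 522 kept direction and side of the threshold, 26 lost and 21 gained a call, 16 reversed and 1 moved. The causes were not tested, apart from thinning, which by construction leaves fewer counts.

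Without the filter on low counts, 1 nuclear gene was called between genotypes in mOBs (Cox6a2, which enters through its Het counts alone), where 536 of 18427 genes were called, and 2 in haematopoietic-like cells (Cox6a2 and Cox6b2), where 1182 of 20360 were. In the other fits of haematopoietic-like cells that tested it Cox6a2 had an edgeR adjusted p of 0.360 to 0.713, and Cox6b2 had 0.350 in the main comparison. Without the filter the nuclear median of mOBs against eOBs was 0.20. With other stage limits the nuclear medians were -0.057 in mOBs and -0.19 for genotype by stage, and the nuclear share of Het minus WT in mOBs was 0.0127 points, against -0.00138 with collagen and mt- UMIs out of the total. Without cells that carried markers of another class, the eOB nuclear median was 0.16 and the share difference 0.110 points. Stricter selection gave an eOB mt- median of -0.44 and 15 nuclear calls for mOBs against eOBs.

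Thinning gave 8 nuclear calls and 4 mt- calls for mOBs against eOBs with a nuclear median of 0.0015, a genotype by stage nuclear median of -0.0099, a dOB mt- median of -0.16, a genotype by stage mt- median of 0.064, and 26 nuclear and 5 mt- calls for OBs against haematopoietic-like cells. With an mt- limit of 5%, mt- calls were 11 for mOBs against eOBs, 5 against haematopoietic-like and 7 against cartilage-like cells. With no limit they were 12 for mOBs against eOBs and 1 against haematopoietic-like cells, and the genotype by stage mt- median was 0.078.

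Over 20 alternatives, 46 of 73 nuclear and 8 of 13 mt- genes changed sign at least once between genotypes in mOBs, 41 of 75 and 9 of 13 in dOBs, and 58 of 75 and 5 of 13 in eOBs. Over 16 alternatives 37 of 77 and 9 of 13 did in haematopoietic-like cells. Among the genes named in the text, directions reversed in mOBs for Sdhb (-0.14), Cox7b (0.055) and Sdha (0.21) with thinned cells and for Sdhd (-0.030) with other stage limits. For mOBs against eOBs they reversed for Sdhb (0.019 with looser selection, 0.0018 without the filter), Sdhc (-0.098 stricter, -0.033 thinned, -0.060 without other markers), Sdhd (0.038 stricter, 0.063 without the filter) and mt-Nd2 (-0.13 without other markers, -0.0153 with RLE, -0.0149 with DESeq2). With thinned cells Ndufs1 had 0.14 against haematopoietic-like cells and Sdha -0.038 against cartilage-like cells.

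Leaving out 1 library moved the eOB mt- median from -0.28 to -0.067, the nuclear calls in mOBs from 0 to 1 (Cox6a2, without S5, S6 or S7) and the mt- calls against haematopoietic-like cells from 1 to 2. Sdhd in mOBs ran from -0.013 to 0.14, and for mOBs against eOBs Sdhc from -0.0027 to 0.19 and mt-Nd2 from -0.065 to 0.073. Of all genes, 51 were called in mOBs, but 130 with DESeq2, 536 without the filter, 0 without kit version, and 11 (without S2) to 166 (without S7) with a library left out.

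Libraries of 1 kit with the same number did not deviate together (correlations of -0.11 and -0.065 over 5628 genes). The replicate block gave 26 calls over all genes in mOBs, 0 of them in the set, with nuclear medians of 0.018 in mOBs and 0.094 in dOBs.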

Other observations

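Cox7a2l, a complex IV related protein that joins respiratory complexes, had opposite directions in the kits. In mOBs it had 187 and 229 CPM in WT S1 and S2 and 292 and 290 in Het S3 and S4, a log2 difference of 0.49. With kit version 3.1 it had 157 and 162 in WT S5 and S6 and 103 and 107 in Het S7 and S8, a log2 difference of -0.60. The genotypes were apart in both kits, in opposite directions, and the averaged log2 fold change was -0.04. In haematopoietic-like cells the differences were 0.24 and -0.42 and in dOBs 0.05 and -0.43. The difference between the kits was not tested.

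The nuclear complex I genes were also grouped, after their values were seen, into the 7 core subunits that carry the electron path and the 29 accessory subunits. The median log2 fold change of Het against WT was 0.21 for the core and 0.02 for the accessory subunits in mOBs, and 0.21 and 0.06 in dOBs. In haematopoietic-like cells it was -0.11 and -0.09. Between mOBs and eOBs, 0 of 7 core and 11 of 29 accessory subunits were called, where 35.5% of all genes were, and the 29 include Ndufa4 by its symbol.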
